A study of Homo sapiens with 6 samples.

Results

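The genes described are the axon guidance genes of 3 ligand and receptor systems: the ephrins and their Eph receptors, the Slits and their Robo receptors, and the netrins with the receptors DCC and UNC5A to UNC5D. They were chosen by gene symbol alone, and 38 of the 59151 genes in the table matched: 15 ligands (8 ephrins, 3 Slits and 4 netrins) and 23 receptors (14 Eph receptors, 4 Robos and 5 netrin receptors). RNA came from forebrain neuron progenitor cells at day 26, which the labels also call forebrain neurons, grown from the established human embryonic stem cell line H9. Cells of the scramble group carried a scrambled hairpin RNA and are labelled wild type. The shRNA1 and shRNA2 groups carried 1 of 2 hairpins against circRTN4(2,3), a circular RNA of the gene RTN4, and are labelled as knockdown of it. Each group had 2 libraries of total RNA depleted of ribosomal RNA. Whether replicates were separate cultures is not labelled. The p-values rest on the spread between the 2 libraries of each group, pooled over the 3 groups, and this spread may be technical.

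Guidance receptors sit on the growing tip of an axon or on a migrating cell and turn contact with a ligand into attraction or repulsion. Ephrin-A ligands are tied to the membrane by a lipid anchor and ephrin-B ligands cross it, so both act between touching cells and can also signal back into the cell that carries them. Eph receptors are receptor tyrosine kinases, and those of the A class mostly bind ephrin-A ligands. Slits are secreted proteins that repel axons through Robo receptors and mark the borders of the midline, and Slit and Robo genes also act in forebrain progenitors and interneuron migration. Netrin-1 attracts axons that carry DCC, and UNC5 receptors turn the response into repulsion.

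Values are FPKM, fragments per kilobase of gene and scaled to the total of the library, which allows levels of different genes to be set side by side. The totals behind them, read from the step between low values, came to 46634855 and 77187298 reads in the 2 scramble libraries and to 78488667 to 83629504 in the 4 of the knockdown, so scramble replicate 1 was the shallowest. Replicates of scramble were further apart than those of either hairpin: over the tested guidance genes the median SD between replicates was 0.133 in scramble, 0.0196 with shRNA1 and 0.0356 with shRNA2 on the log2(FPKM + 1) scale. The 3 groups nevertheless share 1 variance for each gene in the fit, so the SE of a comparison with scramble also draws on the closer hairpin replicates. LHX2 and EMX2, transcription factors of the developing forebrain, were at 11.7 to 13.9 FPKM and 5.69 to 7.36 FPKM in the 6 libraries, and HOXB4, a gene of the hindbrain and spinal cord, at 0 to 0.0103 FPKM. RTN4, whose FPKM mixes linear and circular RNA and so does not measure the depletion of the circle, was at 40.3 and 38.5 FPKM in scramble, 34.2 and 34.7 FPKM in the shRNA1 libraries and 31.2 and 31.3 FPKM in those of shRNA2.

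The promoters of 4 genes that the results turn on are shown because they make up 2 contrasts: the Slit ligands SLIT1 and SLIT2, which lay on opposite sides of scramble in the knockdown libraries, and the ligand EFNA5 and the receptor EPHA3, of which the first rose and the second fell with shRNA2. Each is the 300 bases from 250 before to 50 after the RefSeq start of the gene (GRCh38.p14), 5′ to 3′ on the gene's strand. Capitals mark GGGCGG, the core bound by SP1, CTTTGA, a core of TCF/LEF sites, and TATAAA, 1 form of the TATA box. Exact matches were searched on both strands (CCGCCC is GGGCGG on the other strand).
SLIT1, chr10:97185910-97186209, minus strand: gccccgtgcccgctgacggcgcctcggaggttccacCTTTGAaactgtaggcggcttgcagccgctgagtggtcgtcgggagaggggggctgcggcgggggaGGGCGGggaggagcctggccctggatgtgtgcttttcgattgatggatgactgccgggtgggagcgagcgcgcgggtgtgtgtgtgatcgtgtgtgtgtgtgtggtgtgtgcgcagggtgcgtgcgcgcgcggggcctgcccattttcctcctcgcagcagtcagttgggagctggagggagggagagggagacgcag
SLIT2, chr4:20251655-20251954, plus strand: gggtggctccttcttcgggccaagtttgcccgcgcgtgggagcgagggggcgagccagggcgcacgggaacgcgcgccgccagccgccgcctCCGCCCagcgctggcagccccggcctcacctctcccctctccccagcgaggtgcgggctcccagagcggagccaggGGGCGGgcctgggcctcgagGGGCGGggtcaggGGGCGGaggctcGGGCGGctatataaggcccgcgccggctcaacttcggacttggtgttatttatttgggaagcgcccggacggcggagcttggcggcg
EFNA5, chr5:107670888-107671187, minus strand: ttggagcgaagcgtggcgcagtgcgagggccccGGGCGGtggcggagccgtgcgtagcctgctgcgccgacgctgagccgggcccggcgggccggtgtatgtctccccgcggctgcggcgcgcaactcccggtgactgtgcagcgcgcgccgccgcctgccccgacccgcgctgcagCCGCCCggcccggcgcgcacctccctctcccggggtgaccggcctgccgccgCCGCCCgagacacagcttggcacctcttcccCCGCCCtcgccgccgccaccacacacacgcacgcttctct
EPHA3, chr3:89107371-89107670, plus strand: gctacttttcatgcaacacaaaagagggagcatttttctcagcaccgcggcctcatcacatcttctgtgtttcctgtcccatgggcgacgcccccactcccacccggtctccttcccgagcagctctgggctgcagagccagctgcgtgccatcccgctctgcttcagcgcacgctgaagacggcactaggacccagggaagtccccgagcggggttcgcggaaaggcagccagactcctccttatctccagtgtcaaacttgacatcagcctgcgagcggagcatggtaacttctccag
GGGCGG was found 5 times in the SLIT2 window, 4 times in that of EFNA5, 1 time in that of SLIT1 and 0 times in that of EPHA3. Of all 35116 RefSeq promoters of this length, 45.0% held it, as did 26 of the 32 guidance promoters in the table. CTTTGA stood in the SLIT1 window and in 3 of the 32 guidance promoters, against 12.9% of all promoters. TATAAA stood in none of the 4 shown and in 1 of 32 (11.5% of all). Variants of TATAAA were not searched: the SLIT2 window holds tatataag, which is not marked. The windows of EFNA5 and SLIT2 held 47 and 36 CpG pairs, those of SLIT1 and EPHA3 27 and 17, with a median of 21.5 over the guidance promoters and 14 over all. These matches describe the letters of 1 annotated start per gene and show no binding.

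All 38 genes had a value above 0 in every library, and 23 of them, 11 ligands and 12 receptors, averaged at least 1 FPKM, the level at which a gene was tested. Ranked by the scramble mean, the ephrin-B ligand EFNB1 came first at 20.0 ± 4.49 FPKM (mean ± SD, n = 2 for each group throughout), before ROBO1 at 17.1 ± 0.822 and EFNB2 at 15.1 ± 0.0282 FPKM. EPHA4, EFNB3, DCC and EPHA3 followed at 12.0 to 13.3 FPKM. The 2 scramble libraries of EFNB1 spanned 16.8 to 23.2 FPKM and overlapped those of ROBO1, at 16.5 and 17.6 FPKM, so these neighbours in the order do not differ beyond their spread, and EFNB3, DCC and EPHA3 overlapped in the same way. ROBO1 held 73.8% to 75.7% of the summed Robo FPKM in every library, and DCC 63.0% to 68.8% of that of the netrin receptors.

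**Figure D1:**
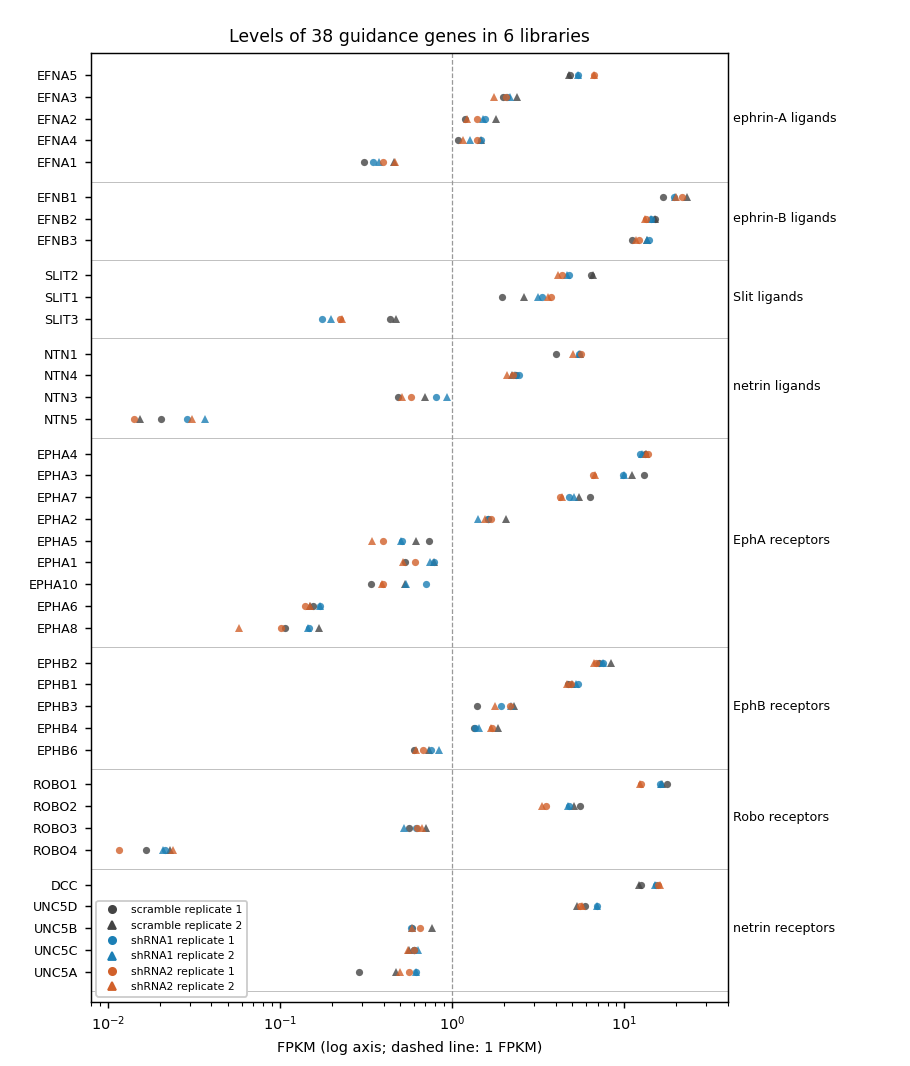
FPKM of the 38 guidance genes (log axis) in each of the 6 libraries, by family; colour is the group, circles are replicate 1 and triangles replicate 2, and the dashed line marks 1 FPKM. EFNB1, ROBO1 and EFNB2 stood highest, and ROBO4 and NTN5 lay near 0.02 FPKM.

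Levels of 23 tested guidance genes were compared with scramble for both hairpins together and for each alone. With shRNA2, EPHA3, SLIT2 and ROBO2 fell and EFNA5 rose. SLIT1, DCC, ROBO1, EPHA7 and EFNB2 did not pass the threshold. For each of them every knockdown library lay outside the range of both scramble libraries, as it did for 18.5% of all tested genes. With shRNA1, and with both hairpins together, no guidance gene passed. The genes that fell were 1 ligand and 2 receptors, and the gene that rose was a ligand. Differences were tested with limma over all 18162 tested genes at a Benjamini-Hochberg adjusted p under 0.05, and every fold change is on the log2(FPKM + 1) scale.

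For shRNA2 against scramble 4 of 23 guidance genes passed (17.4%), against 0.628% of all tested genes: 1 higher (0.187% of all) and 3 lower (0.44% of all). At an unadjusted p under 0.05 there were 9 of 23, against 19.2% of all tested genes and 20.1% of the protein-coding ones. In the knockdown as a whole 0 of 23 passed, against 0.0826% of all genes, while 10 of 23 had an unadjusted p under 0.05 against 13.8% of all genes (12.8% of protein-coding genes). Of these 10, 4 were higher (4.19% of all genes) and 6 lower (9.56%). With shRNA1 0 of 23 passed, against 0.033% of all genes, and 7 of 23 had an unadjusted p under 0.05 against 8.97% of all genes and 7.67% of protein-coding ones. The median log2 fold change of the tested guidance genes in the knockdown was -0.026 (all tested genes: -0.034), with 10 values above 0 and 13 below. It was 0.030 for the 11 ligands and -0.066 for the 12 receptors. With shRNA2 alone the median was -0.038 for the guidance genes and -0.064 for all tested genes, of which 12288 of 18162 lay below 0. The comparisons of the hairpins share the scramble libraries, so their values stand side by side and are not independent of each other.

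The 4 adjusted p-values that passed with shRNA2 lay between 0.0486 and 0.0499. These calls, and nearly all others among the tested genes, were lost when any 1 hairpin library was left out. With either scramble library left out, more guidance genes passed, and so did more of all tested genes. Over the main fit and the alternatives, the log2 fold change with shRNA2 ran from -0.87 to -0.65 for EPHA3 and from -0.6 to -0.43 for SLIT2. It ran from -0.62 to -0.44 for ROBO2 and from 0.39 to 0.49 for EFNA5. Scaling between libraries by median of ratios or quantiles left EFNA5 as the only called guidance gene, with 0.501% and 0.391% of all tested genes called.

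**Figure D2:**
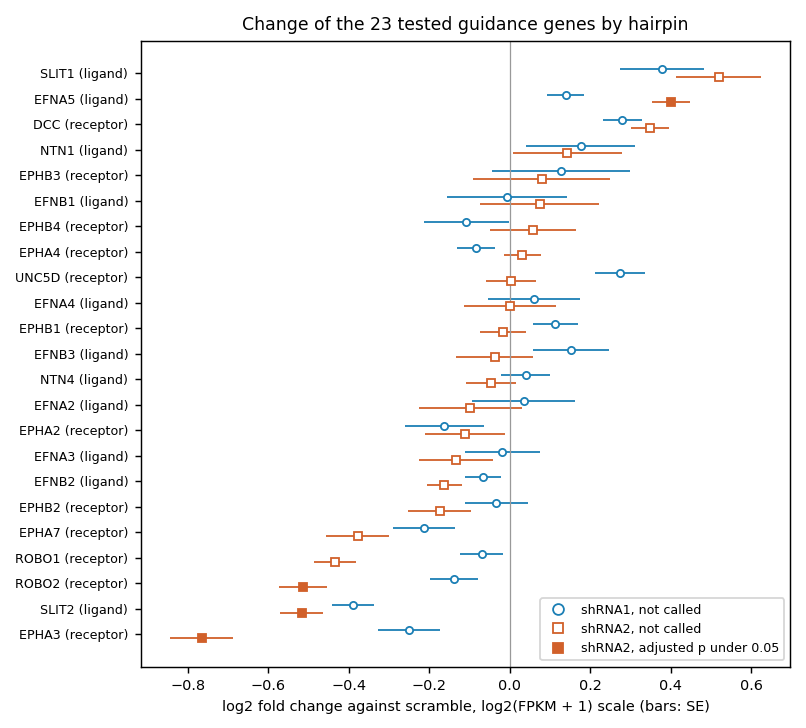
log2 fold change against scramble (log2(FPKM + 1) scale; bars are SE) of the 23 tested guidance genes with shRNA1 (circles) and shRNA2 (squares); filled symbols passed an adjusted p of 0.05. EPHA3 (-0.77), SLIT2 (-0.52), ROBO2 (-0.51) and EFNA5 (0.40) are filled for shRNA2, and no circle is filled.

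Among the Slit ligands, SLIT2 (GRCh38.p14 chromosome 4, 20251905 to 20620561), the classical midline repellent, stood at 6.40 and 6.58 FPKM in scramble, 4.76 and 4.67 FPKM in the shRNA1 libraries and 4.35 and 4.11 FPKM in those of shRNA2. All 4 knockdown libraries were below both scramble libraries, and the scramble replicates were close to each other. The log2 fold change was -0.52 ± 0.053 (SE) with shRNA2 (limma, adjusted p = 0.0486), -0.39 ± 0.053 with shRNA1 (adjusted p = 0.230) and -0.45 for the knockdown as a whole (adjusted p = 0.0707). SLIT1 (chromosome 10, 96998038 to 97185959), a Slit found mainly in the nervous system, was at 1.95 and 2.60 FPKM in scramble, 3.31 and 3.15 FPKM in the shRNA1 libraries and 3.74 and 3.59 FPKM in those of shRNA2. Here the knockdown libraries were all above scramble, but the scramble replicates differed from each other by about as much as scramble replicate 2 differed from shRNA1. Its log2 fold change was 0.38 ± 0.105 (SE) with shRNA1 and 0.52 ± 0.105 with shRNA2, and neither passed (limma, adjusted p = 0.423 and 0.112). The ratio of SLIT1 to SLIT2 FPKM was 0.304 and 0.395 in scramble, 0.696 and 0.675 with shRNA1 and 0.859 and 0.873 with shRNA2. SLIT2 thus held 72.9% and 68.2% of the summed Slit FPKM in scramble and 51.8% to 58.2% in the knockdown libraries, as the plot of family composition shows.

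SLIT3, the third Slit, was under the filter at 0.436 and 0.472 FPKM in scramble. It was at 0.177 and 0.199 FPKM in the shRNA1 libraries and 0.223 and 0.228 FPKM in those of shRNA2, below scramble in all 4 knockdown libraries. Its mean with shRNA1 was 0.414 of that in scramble and with shRNA2 0.497. With the GENCODE v29 exon length of the gene these values stand for about 208 to 519 reads per library. Tested with a filter at 0.1 FPKM and a pseudocount of 0.1, a setting chosen after the data were seen, SLIT3 was at -0.94 ± 0.157 (SE) with shRNA1 (limma, adjusted p = 0.332) and -0.77 ± 0.157 with shRNA2 (adjusted p = 0.169).

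For each netrin ligand the 4 knockdown libraries together overlapped the range of scramble. NTN1, the ligand of DCC, was at 4.01 and 5.54 FPKM in scramble, 5.48 and 5.46 FPKM in the shRNA1 libraries and 5.63 and 5.04 FPKM in those of shRNA2. All knockdown values but 1 lay within the range of the scramble replicates. NTN4, a netrin of basement membranes, was at 2.34 and 2.23 FPKM in scramble, 2.44 and 2.31 FPKM in the shRNA1 libraries and 2.26 and 2.097 FPKM in those of shRNA2, with each hairpin overlapping scramble. NTN3, under the filter, was at 0.486 to 0.937 FPKM and was highest in the shRNA1 libraries (0.810 and 0.937 FPKM), at 0.51 ± 0.194 (SE) against scramble with the filter and pseudocount of 0.1 (limma, adjusted p = 0.579). NTN5 was at 0.0143 to 0.0366 FPKM, about 3.0 to 8.9 reads per library.

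Among the ephrins, EFNA5 (chromosome 5, 107376894 to 107670937), an ephrin-A ligand that patterns maps of axons, was at 4.84 and 4.78 FPKM in scramble, 5.42 and 5.38 FPKM in the shRNA1 libraries and 6.64 and 6.69 FPKM in those of shRNA2. The groups did not overlap, and replicates were alike within each. EFNA5 rose by 0.40 ± 0.047 (SE) on the log2 scale with shRNA2 (limma, adjusted p = 0.0499), and its value with shRNA1 was 0.14 (adjusted p = 0.491). EFNA3 was at 1.98 and 2.39 FPKM in scramble, 2.097 and 2.17 FPKM in the shRNA1 libraries and 2.04 and 1.75 FPKM in those of shRNA2. EFNA2 was at 1.19 and 1.79 FPKM in scramble, 1.56 and 1.504 FPKM in the shRNA1 libraries and 1.40 and 1.22 FPKM in those of shRNA2. EFNA4 was at 1.08 and 1.48 FPKM in scramble, 1.47 and 1.27 FPKM in the shRNA1 libraries and 1.39 and 1.16 FPKM in those of shRNA2. In these 3 ephrin-A ligands each hairpin overlapped scramble, and EFNA1 was under the filter at 0.306 to 0.463 FPKM. The ephrin-B ligands were the most abundant ligands. EFNB2, which also signals from its own cytoplasmic tail, was at 15.03 and 15.07 FPKM in scramble, 14.3 and 14.4 FPKM in the shRNA1 libraries and 13.4 and 13.3 FPKM in those of shRNA2. The groups were ordered without overlap, but the differences were small: -0.07 (adjusted p = 0.763) and -0.16 (adjusted p = 0.161). EFNB1 was at 16.8 and 23.2 FPKM in scramble, 19.5 and 19.8 FPKM in the shRNA1 libraries and 21.8 and 20.0 FPKM in those of shRNA2, all within the range of scramble. EFNB3 was at 11.1 and 13.5 FPKM in scramble, 13.9 and 13.5 FPKM in the shRNA1 libraries and 12.1 and 11.7 FPKM in those of shRNA2, and each hairpin overlapped scramble.

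The Robo receptors ROBO1 and ROBO2, which bind Slits on axons and progenitors, were lowest with shRNA2, and nearer to scramble with shRNA1. ROBO2 (chromosome 3, 75906675 to 77649964) was at 5.52 and 5.12 FPKM in scramble, 4.77 and 4.70 FPKM in the shRNA1 libraries and 3.53 and 3.32 FPKM in those of shRNA2. It fell with shRNA2 by 0.51 ± 0.060 (SE) on the log2 scale (limma, adjusted p = 0.0496). With shRNA1 the value was -0.14 (adjusted p = 0.598). ROBO1 (chromosome 3, 78597239 to 79767998) was at 17.6 and 16.5 FPKM in scramble, 16.1 and 16.3 FPKM in the shRNA1 libraries and 12.4 and 12.3 FPKM in those of shRNA2. The shRNA1 libraries of ROBO1 were just below the lower scramble library, and the shRNA2 libraries well below it, with log2 fold changes of -0.07 (adjusted p = 0.807) and -0.43 ± 0.053 (SE; adjusted p = 0.0536). ROBO3, a receptor that modulates the Slit response of commissural axons, was at 0.527 to 0.702 FPKM, with the 3 groups overlapping except that shRNA2 lay above shRNA1. ROBO4, the Robo of blood vessel cells, was at 0.0116 to 0.0240 FPKM, about 5.5 to 13.5 reads per library. Of 10 endothelial markers, 9 had a mean under 0.1 FPKM.

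**Figure D3:**
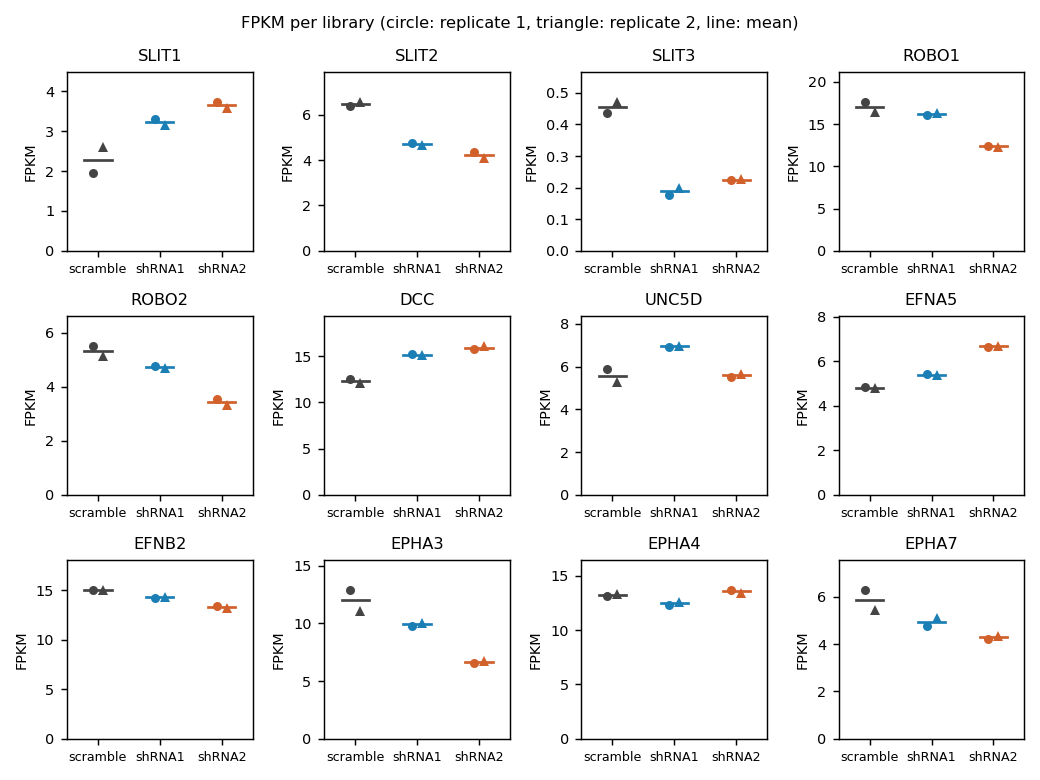
FPKM of 12 guidance genes in each library (circle: replicate 1, triangle: replicate 2, line: group mean; each axis starts at 0). SLIT2, SLIT3, EPHA3 and ROBO2 lie lower in the 4 knockdown libraries than in both scramble libraries, SLIT1, DCC and EFNA5 higher, and UNC5D is high only in the 2 shRNA1 libraries.

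Among the netrin receptors, DCC (chromosome 18, 52340197 to 53535899), the attractive receptor, was at 12.5 and 12.1 FPKM in scramble, 15.2 and 15.1 FPKM in the shRNA1 libraries and 15.7 and 16.1 FPKM in those of shRNA2. The knockdown libraries were all above scramble, and the hairpins were close to each other. The log2 fold change was 0.28 ± 0.047 (SE) with shRNA1 (limma, adjusted p = 0.288), 0.35 ± 0.047 with shRNA2 (adjusted p = 0.0630) and 0.31 for the knockdown as a whole (adjusted p = 0.111). UNC5D, a repulsive receptor of migrating cortical neurons, was at 5.88 and 5.29 FPKM in scramble, 6.93 and 6.98 FPKM in the shRNA1 libraries and 5.51 and 5.66 FPKM in those of shRNA2. It was high in the shRNA1 libraries and within the scramble range in the shRNA2 libraries. The log2 fold change was 0.27 for shRNA1 (adjusted p = 0.349) and 0.002 for shRNA2 (adjusted p = 0.991), and shRNA2 differed from shRNA1 by -0.27 (adjusted p = 0.181). UNC5A, UNC5B and UNC5C, its relatives, were under the filter at 0.288 to 0.760 FPKM. UNC5A was at 0.288 and 0.475 FPKM in scramble and at 0.501 to 0.617 FPKM in the 4 knockdown libraries, above scramble in each. With the filter and pseudocount of 0.1, its log2 fold change with shRNA1 was 0.60 ± 0.223 (SE; limma, adjusted p = 0.568).

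Of the 4 tested EphA receptors, EPHA3 alone passed, with shRNA2. EPHA3 (chromosome 3, 89107621 to 89482134), a receptor for ephrin-A ligands, was at 12.9 and 11.1 FPKM in scramble, 9.81 and 10.0 FPKM in the shRNA1 libraries and 6.55 and 6.72 FPKM in those of shRNA2. The 3 groups did not overlap, with scramble highest and shRNA2 lowest. EPHA3 fell by 0.77 ± 0.078 (SE) with shRNA2 on the log2 scale (limma, adjusted p = 0.0486), and its value was -0.25 ± 0.078 with shRNA1 (adjusted p = 0.459). EPHA7 (chromosome 6, 93240020 to 93419559), which marks borders in the developing cortex, showed the same order of groups. Its levels were 6.30 and 5.45 FPKM in scramble, 4.75 and 5.10 FPKM in the shRNA1 libraries and 4.23 and 4.32 FPKM in those of shRNA2, with log2 fold changes of -0.21 (adjusted p = 0.528) and -0.38 (adjusted p = 0.114). EPHA5, under the filter, was at 0.730 and 0.619 FPKM in scramble, 0.509 and 0.504 FPKM in the shRNA1 libraries and 0.396 and 0.344 FPKM in those of shRNA2, again without overlap. With the filter and pseudocount of 0.1, its log2 fold change with shRNA2 was -0.72 ± 0.151 (SE; limma, adjusted p = 0.171).

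EPHA4, an Eph receptor that binds ephrins of both classes, was at 13.2 and 13.3 FPKM in scramble, 12.3 and 12.6 FPKM in the shRNA1 libraries and 13.7 and 13.4 FPKM in those of shRNA2. Its log2 fold changes were -0.08 (adjusted p = 0.696) and 0.03 (adjusted p = 0.752). EPHA4 made up 36.7% and 39.0% of the summed EphA FPKM in scramble and 49.3% and 48.8% with shRNA2, while EPHA3 went from 36.0% and 32.5% to 23.5% and 24.5%. The summed EphA FPKM was 35.9 and 34.2 in scramble, 30.8 and 31.3 with shRNA1 and 27.8 and 27.5 with shRNA2. EPHA2, an Eph receptor of epithelia and stem cells, was at 1.61 and 2.05 FPKM in scramble, 1.62 and 1.42 FPKM in the shRNA1 libraries and 1.67 and 1.55 FPKM in those of shRNA2, and the groups overlapped. EPHA1, EPHA6, EPHA8 and EPHA10 were under the filter, at 0.0582 to 0.790 FPKM.

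**Figure D4:**
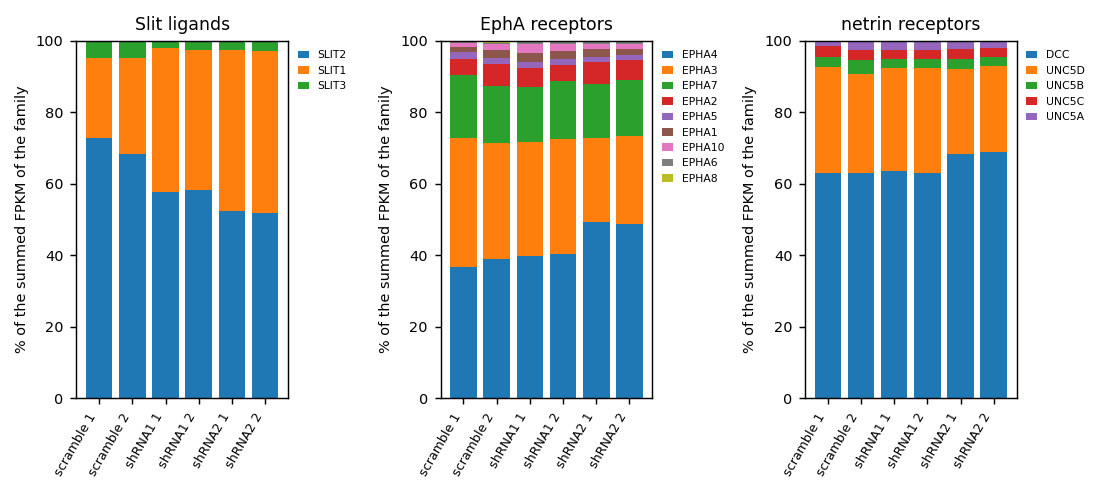
Share of each gene in the summed FPKM of its family (0 to 100%) in each library, for the Slit ligands, the EphA receptors and the netrin receptors. SLIT2 went from 72.9% and 68.2% in scramble to 52.3% and 51.8% with shRNA2, and EPHA4 from 36.7% and 39.0% to 49.3% and 48.8%.

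None of the B-class receptors passed in any comparison. EPHB2, which takes part in synapse formation, was at 7.17 and 8.40 FPKM in scramble, 7.54 and 7.57 FPKM in the shRNA1 libraries and 6.87 and 6.66 FPKM in those of shRNA2, where both libraries were below scramble (log2 fold change -0.17, limma adjusted p = 0.305). EPHB1 was at 4.73 and 4.97 FPKM in scramble, 5.38 and 5.27 FPKM in the shRNA1 libraries and 4.93 and 4.63 FPKM in those of shRNA2, highest with shRNA1 (log2 fold change 0.11, limma adjusted p = 0.663). EPHB3 was at 1.39 and 2.30 FPKM in scramble, 1.94 and 2.20 FPKM in the shRNA1 libraries and 2.18 and 1.76 FPKM in those of shRNA2. EPHB4, best known from veins, was at 1.34 and 1.86 FPKM in scramble, 1.36 and 1.44 FPKM in the shRNA1 libraries and 1.70 and 1.69 FPKM in those of shRNA2. For both, the 4 knockdown libraries lay within the range of the scramble replicates. EPHB6, which lacks kinase activity, was under the filter at 0.599 to 0.835 FPKM.

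Knockdown and scramble libraries did not overlap in 9 of the 23 tested guidance genes, against 18.5% of all tested genes. Of these, 3 (SLIT1, DCC and EFNA5) were above scramble, against 5.87% of all genes, and 6 (SLIT2, ROBO1, ROBO2, EPHA3, EPHA7 and EFNB2) below, against 12.6%. By hairpin, 12 of 23 did not overlap scramble with shRNA1, against 34.7% of all genes, and 11 of 23 with shRNA2, against 47.6%. Of the 15 genes under the filter, 3 (20.0%) did not overlap, near the 18.5% of all tested genes. SLIT3 and EPHA5 lay below scramble and UNC5A above in all 4 knockdown libraries. The share over all genes under the filter was not computed, and the shares of all genes given above cover only those that passed it.

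The hairpins were also compared with each other. Of 23 guidance genes 0 passed, against 0% of all tested genes, and 5 had an unadjusted p under 0.05 against 16.1% of all genes and 18.5% of protein-coding ones. Those 5 were ROBO1 (-0.36 for shRNA2 against shRNA1), EPHA3 (-0.51), ROBO2 (-0.37), UNC5D (-0.27) and EFNA5 (0.26), with adjusted p-values from 0.128 to 0.181 (limma). The same 5 passed when only the 4 hairpin libraries were fitted, which leaves out the wider spread of scramble, and 5.27% of all tested genes passed in that fit. For SLIT2 (-0.13), SLIT1 (0.14) and DCC (0.07) the unadjusted p was 0.0595, 0.237 and 0.205, which does not show that the hairpins act alike on them. The groups did not overlap in 19 of 23 genes, against 63.3% of all genes.

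Other genes of these pathways showed no called difference in any of the 4 comparisons. Of 23 co-receptors and other ligands, 17 were tested, and an unadjusted limma p under 0.05 was found for 3 in the knockdown as a whole (all lower), 2 with shRNA1, 6 with shRNA2 and 7 between the hairpins. These are 17.6%, 11.8%, 35.3% and 41.2% of the list, against 13.8%, 8.97%, 19.2% and 16.1% of all tested genes. NELL1, of the NELL proteins, of which NELL2 binds ROBO3, was at 1.65 and 1.82 FPKM in scramble, 1.80 and 1.46 FPKM in the shRNA1 libraries and 0.727 and 0.686 FPKM in those of shRNA2 (log2 fold change -0.68 with shRNA2, limma adjusted p = 0.0577). ADGRL3, an adhesion receptor that binds FLRT and UNC5 proteins, was at 9.08 and 8.62 FPKM in scramble and 6.83 and 6.84 FPKM with shRNA2 (-0.33, adjusted p = 0.0756). The knockdown values were -0.17 for NELL2 (adjusted p = 0.258) and 0.13 for PRTG, a receptor of the DCC family (adjusted p = 0.395). The value of PRTG averages hairpins that differed: -0.07 with shRNA1 and 0.32 with shRNA2 (limma, adjusted p = 0.869 and 0.104). Choice by the knockdown p passes over genes whose hairpins went opposite ways. DSCAM, of the same list, was at 0.25 with shRNA1 and -0.29 with shRNA2 (limma, adjusted p = 0.459 and 0.157). Of 42 adaptors and effectors, 39 were tested, with such a p for 3, 3, 8 and 8 in the same order, or 7.69%, 7.69%, 20.5% and 20.5%. The share was under that of all genes in the knockdown as a whole and with shRNA1. It was near that of all genes with shRNA2 (19.2%) and above it between the hairpins (16.1%). Those with the smallest knockdown p were SDCBP, a scaffold that binds ephrin-B tails (-0.18, adjusted p = 0.226), RHOA, the small GTPase of growth cone collapse (-0.16, 0.245), ABLIM1, an actin-binding protein (0.16, 0.246), and CHN2, of the chimaerins (0.11, 0.425). By hairpin, SDCBP was at -0.06 with shRNA1 and -0.29 with shRNA2, and CHN2 at 0.22 with shRNA1 and 0.001 with shRNA2. The median knockdown log2 fold changes of the 2 lists were -0.048 and -0.035, beside -0.034 for all genes.

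Summed markers of several cell types differed between the groups. Dorsal midline and choroid plexus markers (6 of 14 at 1 FPKM or more) summed to 36.3 and 39.7 FPKM in scramble, 19.1 and 19.1 FPKM in the shRNA1 libraries and 23.2 and 23.4 FPKM in those of shRNA2. OTX2, a member of that list, was at 11.2 and 11.8 FPKM in scramble and 14.1 and 14.7 FPKM with shRNA2. Without OTX2, a choice made after its values were seen, the other 13 summed to 25.1 and 27.9 FPKM in scramble, 8.13 and 8.22 FPKM in the shRNA1 libraries and 9.02 and 8.73 FPKM in those of shRNA2. Mesenchymal markers (1 of 10 at this level) summed to 7.05 and 7.66 FPKM in scramble and 1.69 to 2.09 FPKM in the knockdown libraries. Pluripotency markers (4 of 9) summed to 12.1 and 12.3 FPKM in scramble, 13.5 and 13.5 FPKM in the shRNA1 libraries and 22.4 and 22.1 FPKM in those of shRNA2. The 4 were LIN28A, DPPA4, SALL4 and DNMT3B. POU5F1 and NANOG, of the same list, reached at most 0.0498 and 0.0687 FPKM, both in shRNA2 replicate 1. Neuron markers (14 of 17) summed to 453 and 449 FPKM in scramble, 473 and 477 FPKM in the shRNA1 libraries and 402 and 399 FPKM in those of shRNA2, and progenitor markers (12 of 14) to 235 and 246, 212 and 212, and 230 and 228 FPKM. Astrocyte and oligodendrocyte markers (2 of 10) summed to 3.37 to 4.37 FPKM and endothelial ones (0 of 10) to 0.412 to 0.671 FPKM, and no marker was at 0 in all libraries. The part of these markers in the values of the Slit, Robo, DCC, Eph and ephrin genes was not tested, and in bulk RNA fewer cells of a type and less RNA per cell cannot be told apart. Of the floor plate, a source of netrin-1 and Slits, 4 of 9 markers reached 1 FPKM, with a sum of 20.1 to 27.2 FPKM that includes NTN1 and SLIT1, while FOXA2 was at 0 to 0.0273 FPKM and SHH at 0.123 to 0.323 FPKM.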

How the data were processed

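The deposited values were FPKM, 1 per gene symbol and library, as the authors named the columns. The submitters' processing notes list featureCounts 2.0.1 and HISAT2 2.1.0, beside SAMtools 1.9 and Trimmomatic 0.39, and the build GRCh38 (hg38). The sources used here do not give the strand setting or the annotation, so reads of a guidance gene and of an antisense or intronic gene (such as SLIT2-IT1, 1.57 to 2.59 FPKM) cannot be told apart. Library totals were read from miRNA genes of known length: the most frequent step was taken as 1 read, and 60.5% to 66.0% of the values were whole reads within 0.01. One read on a gene of 1 kb is 0.0120 to 0.0214 FPKM, and 3 reads are 0.0359 to 0.0643 FPKM, for counting error only. Approximate read numbers use GENCODE v29 exon lengths, which may not be those the authors used.

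Genes averaging at least 1 FPKM were tested as log2(FPKM + 1), without further scaling, with limma 3.58.1 (R 4.3.3) on all 3 groups, with the trend option of its moderation and p-values adjusted by Benjamini-Hochberg over 18162 genes. The fit was tested on simulated data in which each gene had the same spread in every library. Scramble was wider than the hairpins in the real data, so that test cannot show how the fit behaves here. Every gene matching the symbol rule was named. Of the other pathway genes, those called and the 4 per list with the smallest knockdown p were named. DSCAM was added after its values were seen. Log2 fold changes are given for guidance genes with an unadjusted p under 0.05 in a comparison with scramble, and for EPHA4, EPHB1 and EPHB2, chosen after their values were seen. The members, lists and tests were chosen with earlier results of these data known. Positions are those of RefSeq on GRCh38.p14 (1-based). Further software was matplotlib 3.10.9, pandas 2.3.3 and numpy 2.4.6 in Python 3.11.15. Alternatives covered the pseudocount, the filter, scaling, the trend, library weights, the groups fitted, a replicate block and leaving out each library.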

Additional observations from a re-analysis of the deposited data

Results flagged for a closer look

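EPHA4 passed in no comparison, but its hairpin libraries lay on opposite sides of scramble: both shRNA1 libraries lay below both scramble libraries and both shRNA2 libraries above them. The log2 fold changes against scramble were -0.08 ± 0.0465 (SE) and 0.03 ± 0.0465. The mean with shRNA2 was 1.09 times that with shRNA1. In the test of the difference between the hairpins it was 0.12 on the log2 scale and did not pass (limma, adjusted p = 0.318).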

How the results depend on the processing

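For shRNA2 against scramble, where 4 guidance genes passed, 2 passed with a pseudocount of 0.1 (0.529% of all tested genes) and 5 of 13 with a filter at 5 FPKM (5.69%). The count was 1 with median-of-ratios scaling (0.501% of all) and 1 with quantile normalization (0.391%). It was 0 without a filter (0% of all), 0 without the trend (0.193%) and 0 with array weights (0.0275%). It was also 0 when only the 4 libraries of both groups were fitted (0.00551%). With a filter at 0.1 FPKM and a pseudocount of 0.1 the count was 0 (0.122%). It was 7 with protein-coding genes only (3.75% of all), and 0 to 10 when 1 library was left out (up to 13.3% of all). For the knockdown as a whole, where 0 passed, the count was 1 (SLIT2) with a filter at 5 FPKM (0.764% of all), 4 (DCC, EFNA5, EPHA3 and SLIT2) with protein-coding genes only (1.01%), and 0 to 4 when 1 library was left out, with the 4 coming from the fit without scramble replicate 1 (2.79%). For shRNA1 against scramble the count was 0 in all 17 alternatives. For shRNA2 against shRNA1, where 0 passed, 5 passed with array weights (12.9% of all), 5 with the 4 hairpin libraries only (5.27%), 3 with protein-coding genes only (2.38%), and 0 to 5 when 1 library was left out, with 5 without scramble replicate 1 (5.38%) and without scramble replicate 2 (5.67%). Where 1 library of a group was left, it was assumed to vary like the others. The settings with protein-coding genes only and with the filter at 0.1 FPKM were chosen after the data were seen. With the replicate number as a block, 0 guidance genes passed in every comparison, against 0% to 0.00551% of all tested genes. The numbers do not pair the libraries: deviations of same-numbered replicates correlated at -0.008 (scramble and shRNA1), -0.150 (scramble and shRNA2) and 0.012 (shRNA1 and shRNA2). Single-gene values under the alternatives were followed only for guidance genes with an unadjusted limma p under 0.05 in a comparison with scramble. Genes chosen for a small p in these same data tend to keep their direction, so the counts do not describe all tested guidance genes. Of these values, 575 kept direction and side of the threshold, 46 came to pass it, 48 no longer passed and 3 changed sign. The last were UNC5D with shRNA2 against scramble, at -0.0618 to 0.0661 when 1 library was left out, against 0.002 (below 0 without scramble replicate 2, at -0.0618, and without shRNA2 replicate 2, at -0.0146), and EFNB2 between the hairpins, at 0.0094 after quantile normalization; none of these was called. The cause of these dependences was not tested. Depth limits ROBO4 and NTN5, at 3.0 to 13.5 reads per library.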
